A study of Rattus norvegicus with 4 samples.

Results

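The cyclins and the cell cycle machinery were followed through the serum response of Rat1 fibroblasts by 10 genes: the D-type cyclins Ccnd1, Ccnd2 and Ccnd3, the kinase Cdk4, the replication genes Pcna and Mcm5, the topoisomerase gene Top2a, the mitotic kinase Cdk1 with cyclin B1 (Ccnb1), and Anapc5. Every probe set of the RG-U34A array whose annotation gives 1 of these symbols alone was taken, which made 22 of the 8799 probe sets and 10 of the 4736 genes named by a single symbol. Rat1 cells are an immortalized line of rat fibroblasts. They carried either an empty retrovirus (Rat1-control) or a retrovirus for Omomer, that is Omomyc, an interfering form of Myc, fused to a tamoxifen-dependent oestrogen receptor part (Rat1-Omomer). Both lines were kept for 48 h in 0.1% serum and were harvested then (0 min) or 90 min after the change to 10% serum. Tamoxifen (4-OHT) was given during starvation by the labels and from shortly before serum by the methods, so its duration before 0 min is not settled. All 4 samples thus had 4-OHT, and both lines carried a retrovirus; whether a line was a pool or a clone is not given in the sources used here. There were 4 arrays, 1 per condition, so that no spread between cultures was known and no difference between conditions could be tested. In 1 field the labels contradict the titles, naming the opposite vector for Rat1-Omomer at 0 min and Rat1-control at 90 min; the titles were followed.

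Cells that leave quiescence after serum first make D-type cyclins, which bind Cdk4 or its relative Cdk6 and lift the block that the retinoblastoma protein family places on E2F factors. Genes of DNA replication such as Pcna and the Mcm helicase are then transcribed for S phase, while Cdk1, cyclin B1 and topoisomerase II alpha build up later, towards mitosis, and are destroyed or silenced in cells that leave the cycle. The anaphase-promoting complex marks cyclin B1 for degradation. Several of these genes, among them those of D-type cyclins and Cdk4, are known targets of Myc, which binds the E-box CACGTG with its partner Max. A time of 90 min lies early in this sequence, long before S phase.

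Each value is an average difference, that is how much brighter the matching probes of a probe set were than their mismatched partners, on a linear scale on which values near or below 0 are not told apart from no signal. Where 4 values follow each other, they stand in the order control 0 min, Omomer 0 min, control 90 min, Omomer 90 min. The noise, estimated from all values below 0, had an SD of 524, and values under a floor of 1048 (2 times this SD) were set to the floor before a ratio was taken. A ratio with 1 value under the floor is therefore a bound, and no ratio was taken where neither value reached the floor. Between 38.5% and 42.8% of the probe sets of an array lay above the floor. Taken from single arrays, the floor at 90 min would be 1228 (Rat1-Omomer) and 1090 (Rat1-control). The array of Rat1-Omomer cells at 90 min also stood apart in how probe sets of a gene differed, across 389 genes with several probe sets that passed the floor everywhere. The SD of the log2 ratio within a gene was 0.73 for Rat1-Omomer over Rat1-control at 90 min. It was 0.31 for Rat1-control at 90 min over 0 min and 0.29 for Rat1-Omomer over Rat1-control at 0 min. Without 5 series of expressed sequence tags, taken up with Anapc5 below, these SDs were 0.61, 0.31 and 0.29 across 320 genes. Of the 10 fibroblast markers listed, all 10 lay above the floor on all arrays, and the 5 epithelial, 4 muscle and 2 endothelial markers measured lay under it on all. Of 3 immune markers, Ptprc and Cd74 passed the floor on some arrays with values up to 1659, and of 3 neural markers Snap25 was above it on all 4 arrays. No probe set is named for Omomyc; Myc by its brighter probe set had 1172 in Rat1-control cells against 2307 with Omomer at 0 min, and 4980 against 7233 at 90 min. The other Myc probe set had 222, 534, 1171 and 159, above the floor only in Rat1-control cells at 90 min.

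Cdk1, Top2a and Mcm5 had their lowest values on the Rat1-control 90 min array and not on the Rat1-Omomer 90 min array. Cdk4 and the 2 brightest Ccnd3 probe sets were also lowest on the Rat1-control 90 min array, at 1.05-fold to 1.74-fold under 0 min. Anapc5, 2 of 4 measurable probe sets of Ccnd1 and the brighter probe set of Ccnb1 had their lowest values on the Rat1-Omomer 90 min array. Pcna and Cdk4 were higher in Rat1-Omomer than in Rat1-control cells both before and after serum, by less than 2-fold. Where both values were above the floor, Ccnd3 differed by 1.74-fold or less, and Ccnd2 was under the floor on every array.

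**Figure D1:**
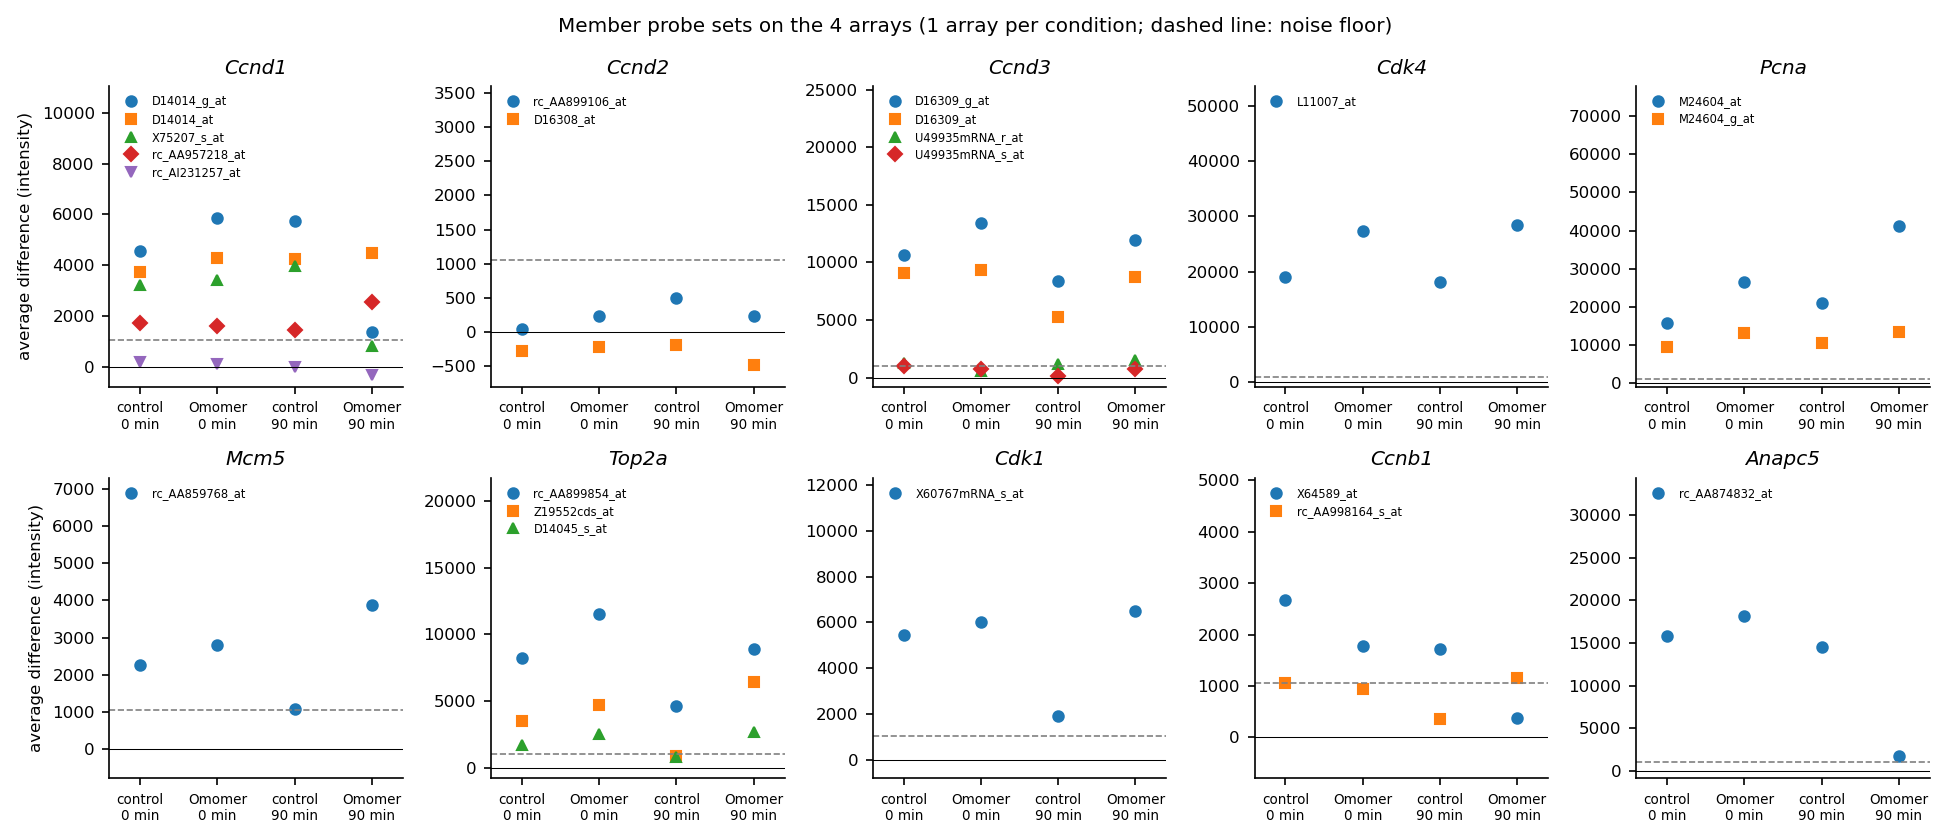
Average difference (intensity, linear scale, vertical axis) of the 22 member probe sets on the 4 arrays (horizontal axis, 1 array per condition); each symbol is a probe set, the dashed line is the floor of 1048, and no error can be drawn. Cdk1, Mcm5 and the 3 Top2a probe sets are lowest on the Rat1-control 90 min array, as are Cdk4 and the 2 brightest Ccnd3 probe sets. Anapc5, 2 measurable Ccnd1 probe sets and the brighter Ccnb1 probe set are lowest on the Rat1-Omomer 90 min array.

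Cyclin D1 is the D-type cyclin that growth factors induce in fibroblasts. By its brightest probe set (D14014_g_at) Ccnd1 had 4542 in Rat1-control cells against 5836 with Omomer at 0 min, and 5756 against 1378 at 90 min. The first 3 arrays were alike and the last was 3.30-fold lower than Rat1-control cells at 0 min and 4.18-fold lower than Rat1-control cells at 90 min. A probe set on another sequence record (X75207_s_at) had 3217, 3424, 3981 and 797 in the same order, at least 3.80-fold lower in Rat1-Omomer than in Rat1-control cells at 90 min. The other 2 measurable probe sets did not show this. The probe set D14014_at had 3721, 4296, 4241 and 4485, which is 1.06-fold higher in Rat1-Omomer than in Rat1-control cells at 90 min. An expressed sequence tag (rc_AA957218_at) had 1732, 1600, 1439 and 2524, or 1.75-fold higher. Of the 4 probe sets, 2 were thus at least 3-fold lower and 2 were higher for a single gene on the same pair of arrays. A further tag (rc_AI231257_at) was under the floor on all arrays, with values between -316 and 170. In Rat1-control cells serum changed Ccnd1 little at 90 min, between 1.20-fold lower and 1.27-fold higher over the 4 probe sets.

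The probe sets D14014_at and D14014_g_at were designed on the same sequence record, as their shared accession shows, which allows their disagreement to be set against that of other such pairs. For 237 pairs above the floor on all arrays, the log2 ratio of both probe sets was compared between arrays. For Ccnd1 this ratio was -0.29, -0.44, -0.44 and 1.70 on the 4 arrays. Its shift of 2.14 between the 2 lines at 90 min was the largest of the 237 pairs, whose shifts had a median size of 0.33 and an SD of 0.58. Between Rat1-control cells at 90 and 0 min the Ccnd1 pair moved by -0.15, rank 146 by size. The pair of Ccnd3 moved by 0.23 between the lines at 90 min and that of Pcna by 0.62, ranks 147 and 57. The direction of Ccnd1 on the Rat1-Omomer 90 min array therefore depended on the probe set read. What sets the probe sets apart was not tested.

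**Figure D2:**
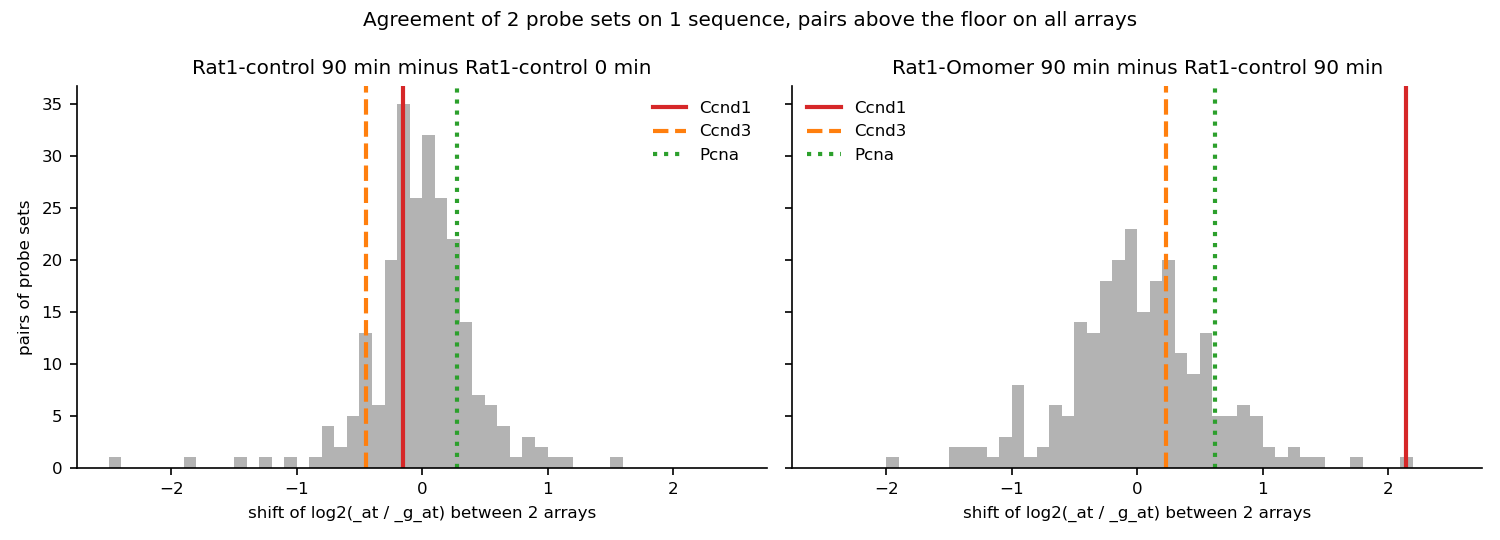
Histograms of the shift in log2 ratio of 2 probe sets made on 1 sequence record (horizontal axis, log2) over 237 pairs (vertical axis, number of pairs), between Rat1-control at 90 and 0 min on the left and between Rat1-Omomer and Rat1-control at 90 min on the right; lines mark the pairs of Ccnd1, Ccnd3 and Pcna. The Ccnd1 pair lies inside the bulk on the left, at -0.15, and is the outermost on the right, at 2.14.

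No probe set of the other D-type cyclins reached 2-fold with both values above the floor. Cyclin D3 (Ccnd3) is the D-type cyclin most broadly present in tissues. Its brightest probe set (D16309_g_at) had 10662 in Rat1-control cells against 13403 with Omomer at 0 min, and 8402 against 11935 at 90 min. The second (D16309_at) had 9097, 9316, 5240 and 8756. Both were lowest in Rat1-control cells at 90 min, 1.27-fold and 1.74-fold under 0 min, and both were higher in Rat1-Omomer cells at that time, by 1.42-fold and 1.67-fold. Of the 2 probe sets from a further record, U49935mRNA_r_at had 1298, 564, 1178 and 1520, close to the floor, with bounds of at least 1.24-fold and at least 1.45-fold for the comparisons that use 564 and no upper limit there, and U49935mRNA_s_at was under it on all arrays. Cyclin D2 (Ccnd2) could not be followed, since its 2 probe sets ranged from -474 to 503. Values under the floor bear on these probes only and do not show that the gene was silent.

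Cdk4 is the kinase that D-type cyclins activate. Its only probe set had 19013 in Rat1-control cells against 27437 with Omomer at 0 min, and 18147 against 28403 at 90 min. Both Rat1-Omomer arrays were higher than both Rat1-control arrays, by 1.44-fold at 0 min and 1.57-fold at 90 min, while 90 min of serum changed the value by 1.05-fold in Rat1-control and 1.04-fold in Rat1-Omomer cells. At 0 min the log2 ratio of 0.53 was exceeded by 7.22% of 3977 probe sets, and at 90 min that of 0.65 by 25% of 4048. The Rat1-Omomer 90 min array had a median log2 ratio of 0.18 over Rat1-control at 90 min across all probe sets, and of 0.10 over Rat1-control at 0 min.

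The promoter of Cdk4 is shown because, of the 8 members with an entry in the RefSeq promoter table (GRCr8; Ccnd1 and Ccnd2 have none there), it alone held the E-box CACGTG in the 250 bases before the annotated start. It held 3 copies, which begin 203, 183 and 95 bases before the start. Of 33469 promoters of the same length, 5.59% held at least 1 copy. It lies at chr7:64771203-64771452 on the + strand, and the capitals mark the E-boxes.

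Cdk4: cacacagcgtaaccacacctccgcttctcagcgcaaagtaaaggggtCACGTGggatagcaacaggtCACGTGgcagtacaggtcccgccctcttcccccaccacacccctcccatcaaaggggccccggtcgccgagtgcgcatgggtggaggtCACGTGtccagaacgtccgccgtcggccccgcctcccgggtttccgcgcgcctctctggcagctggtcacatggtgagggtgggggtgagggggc

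A match in letters is a description and no measurement of binding. The part of Myc or Omomyc in the values of Cdk4 was not tested.

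Pcna encodes the sliding clamp of the replication polymerases. Its probe set M24604_at had 15794 in Rat1-control cells against 26609 with Omomer at 0 min, and 21032 against 41254 at 90 min. The probe set M24604_g_at on the same record had 9576, 13123, 10494 and 13408. In both, each Rat1-Omomer value lay above both Rat1-control values, by 1.68-fold and 1.37-fold at 0 min and by 1.96-fold and 1.28-fold at 90 min. After serum Rat1-control cells were 1.33-fold and 1.10-fold higher and Rat1-Omomer cells 1.55-fold and 1.02-fold higher than at 0 min, so that the size of the serum response was not shared by the 2 probe sets. Over Rat1-control cells at 0 min, M24604_at was 2.61-fold higher on the Rat1-Omomer 90 min array, the only member probe set at least 2-fold higher in that comparison, where 10.1% of all probe sets with a ratio reached this.

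Cdk1, the kinase that drives entry into mitosis, had 5472 in Rat1-control cells against 6042 with Omomer at 0 min. At 90 min the values were 1930 and 6522. The Rat1-control 90 min array was thus the low one, 2.84-fold below 0 min, whereas the other 3 differed by at most 1.19-fold. Only 2.03% of 3985 probe sets had a lower ratio in Rat1-control cells after serum. Between the lines at 90 min Cdk1 was 3.38-fold higher in Rat1-Omomer cells, where 98.5% of 4048 probe sets had a lower ratio.

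Top2a encodes the topoisomerase that untangles DNA in S phase and mitosis, and its 3 probe sets shared the lowest array and not the highest. By its brightest probe set (rc_AA899854_at) it had 8234 in Rat1-control cells against 11516 with Omomer at 0 min, and 4615 against 8937 at 90 min. The probe set Z19552cds_at had 3474, 4688, 865 and 6396. The third (D14045_s_at) had 1674, 2506, 792 and 2664. All 3 were lowest in Rat1-control cells at 90 min: 1.78-fold, at least 3.31-fold and at least 1.60-fold under 0 min. At 0 min all 3 were already higher in the Omomer line, by 1.35-fold to 1.50-fold. At 90 min they were 1.94-fold, at least 6.10-fold and at least 2.54-fold above them. Within Rat1-Omomer cells the 3 probe sets ranged from 1.29-fold lower to 1.36-fold higher after serum.

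Mcm5 is a subunit of the helicase that is loaded at replication origins before S phase. Its only probe set had 2256 in Rat1-control cells against 2790 with Omomer at 0 min, and 1069 against 3872 at 90 min. It was 2.11-fold lower after serum in Rat1-control cells, 1.39-fold higher in Rat1-Omomer cells, and 3.62-fold higher in Rat1-Omomer than in Rat1-control cells at 90 min. The value of 1069 barely passed the floor and lies under the floor of 1090 from that array alone, which makes these ratios uncertain. With a floor of 4 SDs, the log2 ratio between the lines at 90 min was 0.89 in place of 1.86.

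The promoters printed are those of the 3 genes with a probe set at least 2-fold lower in Rat1-control cells after serum. Cdk4 and the 2 brightest Ccnd3 probe sets were also lowest on the Rat1-control 90 min array, at 1.05-fold to 1.74-fold under 0 min. Cdk1, Top2a and Mcm5 all held the CCAAT box, the site of the factor NF-Y, in the 250 bases before the start on either strand. In all, 7 of the 8 members with an entry held it, all but Cdk4, as did 34% of the 33469 promoters. Cdk1 and Top2a also held TTTGAA, the letters of the cell cycle genes homology region (CHR) that is known from genes of late cell cycle phases. No other member had it, and 16.2% of all promoters did. Mcm5 held TTTGGCGC and TTTCCCGC, 2 forms of the E2F site, present in 0.412% and 0.813% of all promoters and in no other member. Capitals mark these motifs on either strand, so that ATTGG is a CCAAT box, TTCAAA a CHR and GCGCCAAA an E2F site on the other strand, and no 2 of them overlap.

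Cdk1: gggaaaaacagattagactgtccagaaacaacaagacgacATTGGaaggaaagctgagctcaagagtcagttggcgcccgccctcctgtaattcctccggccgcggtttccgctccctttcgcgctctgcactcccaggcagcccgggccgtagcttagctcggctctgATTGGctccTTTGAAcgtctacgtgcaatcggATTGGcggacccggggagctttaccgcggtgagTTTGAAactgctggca
Top2a: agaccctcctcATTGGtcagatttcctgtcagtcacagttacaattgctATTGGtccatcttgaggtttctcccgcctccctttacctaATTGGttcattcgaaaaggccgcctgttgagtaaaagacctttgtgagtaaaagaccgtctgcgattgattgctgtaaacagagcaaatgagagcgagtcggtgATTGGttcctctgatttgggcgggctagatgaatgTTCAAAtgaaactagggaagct
Mcm5: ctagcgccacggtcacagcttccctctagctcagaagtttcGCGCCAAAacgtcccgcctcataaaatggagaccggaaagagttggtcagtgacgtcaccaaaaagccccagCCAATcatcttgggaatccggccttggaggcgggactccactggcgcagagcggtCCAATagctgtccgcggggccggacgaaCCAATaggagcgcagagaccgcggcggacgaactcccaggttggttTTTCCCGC

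They lie in GRCr8 at chr20:19265043-19265292 on the + strand for Cdk1, chr10:84473094-84473343 on the - strand for Top2a and chr19:13488563-13488812 on the + strand for Mcm5. In the Cdk1 promoter the CHR copies begin 72 and 16 bases before the start and the nearest CCAAT boxes 81 and 49 bases before it; in Top2a the CHR begins 22 and the nearest CCAAT box 57 bases before it. In Mcm5 a form of the E2F site ends at the last base before the start.

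Cyclin B1 (Ccnb1), the partner of Cdk1, was measurable mainly by 1 probe set. This probe set, X64589_at, had 2676 in Rat1-control cells against 1786 with Omomer at 0 min, and 1712 against 378 at 90 min. It was highest in Rat1-control cells at 0 min and under the floor in Rat1-Omomer cells at 90 min, which is at least 2.55-fold below the control array at 0 min and at least 1.63-fold below that at 90 min. The other probe set (rc_AA998164_s_at) had 1063, 932, 352 and 1150, near the floor or under it. Like Cdk1 it had its lowest value on the Rat1-control 90 min array and its highest on the Rat1-Omomer 90 min array, but 352 is under the floor and 1150 under the floor of 1228 from that array alone, so that no direction was read from it.

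Anapc5 encodes a scaffold subunit of the anaphase-promoting complex, the ubiquitin ligase that ends mitosis. Its only probe set had 15789 in Rat1-control cells against 18229 with Omomer at 0 min, and 14516 against 1724 at 90 min. The first 3 arrays were alike, and the last was 9.16-fold lower than Rat1-control cells at 0 min, 8.42-fold lower than Rat1-control cells at 90 min and 10.6-fold lower than the same cells at 0 min. In this last comparison 0.261% of 4209 probe sets had a lower ratio. The probe set (rc_AA874832_at) belongs to 5 series of expressed sequence tags, with IDs starting with rc_AA79, rc_AA80, rc_AA85, rc_AA87 or rc_AA89, whose values were low as a whole on the Rat1-Omomer 90 min array. Among these series the median log2 ratio of Rat1-Omomer over Rat1-control at 90 min was -0.69, against 0.32 outside them. Lower by 3-fold or more were 27.2% of 892 probe sets in the series, against 3.3% of 3156 outside them. The prefixes were fixed by hand without a stated rule, so this contrast is a description of these arrays. The part of the series in the value of Anapc5 was not tested, and no second probe set of Anapc5 exists to set beside it. Mcm5, the brightest probe set of Top2a and 1 of Ccnd2 belong to the same series, and the first 2 were higher in Rat1-Omomer than in Rat1-control cells at 90 min. The 2 low Ccnd1 probe sets lie outside the series.

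Counted over all members, 18 of the 22 probe sets had a ratio in each of the 5 comparisons and 12 lay above the floor on all arrays. At 0 min none of the 18 was at least 3-fold higher or lower in Rat1-Omomer than in Rat1-control cells, where 0.251% and 0.503% of all probe sets were; at 2-fold there was none either, where 1.41% were higher and 1.71% lower. Their median log2 ratio was 0.26, against 0.01 for all probe sets. Above 0 were 14 of the 18, where 2056 of 3977 of all probe sets were. In Rat1-control cells after serum 1 of the 18, a Top2a probe set, was at least 3-fold lower and no member was as much higher, against 1.81% and 1.93% of all probe sets. At 2-fold, 3 were lower (Cdk1, Top2a and Mcm5) and none higher, where 7.23% and 5.45% of all probe sets were. The median was -0.20, against -0.07 for all, and 13 were below 0, where 2231 of 3985 of all probe sets were. These ratios share the Rat1-control 0 min array.

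With Rat1-control cells at 0 min as the reference, 3 of 18 probe sets (2 of Ccnd1 and Anapc5) were at least 3-fold lower on the Rat1-Omomer 90 min array, where 9.95% of all probe sets were, and none was at least 3-fold higher, where 2.8% were. Between the lines at 90 min, the same 3 were at least 3-fold lower, where 8.57% of all probe sets were, and 3 were at least 3-fold higher (Cdk1, Top2a and Mcm5), where 2.22% were. The members had a median of 0.58 in that comparison, against 0.18 for all. Against their own 0 min array, Rat1-Omomer cells had 3 lower members at 90 min, again those of Ccnd1 and Anapc5, where 9.65% of all probe sets were as much lower, and none higher, where 2.9% were (none at 2-fold either, where 9.19% were); the median was 0.06, against 0.09 for all. The 3 lower probe sets stand for 2 genes, and probe sets of a gene are not replicates. Cdk1, Top2a and Mcm5 reached 3-fold between the lines with a low Rat1-control 90 min array, while within Rat1-Omomer cells their probe sets lay between 1.29-fold lower and 1.39-fold higher.

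**Figure D3:**
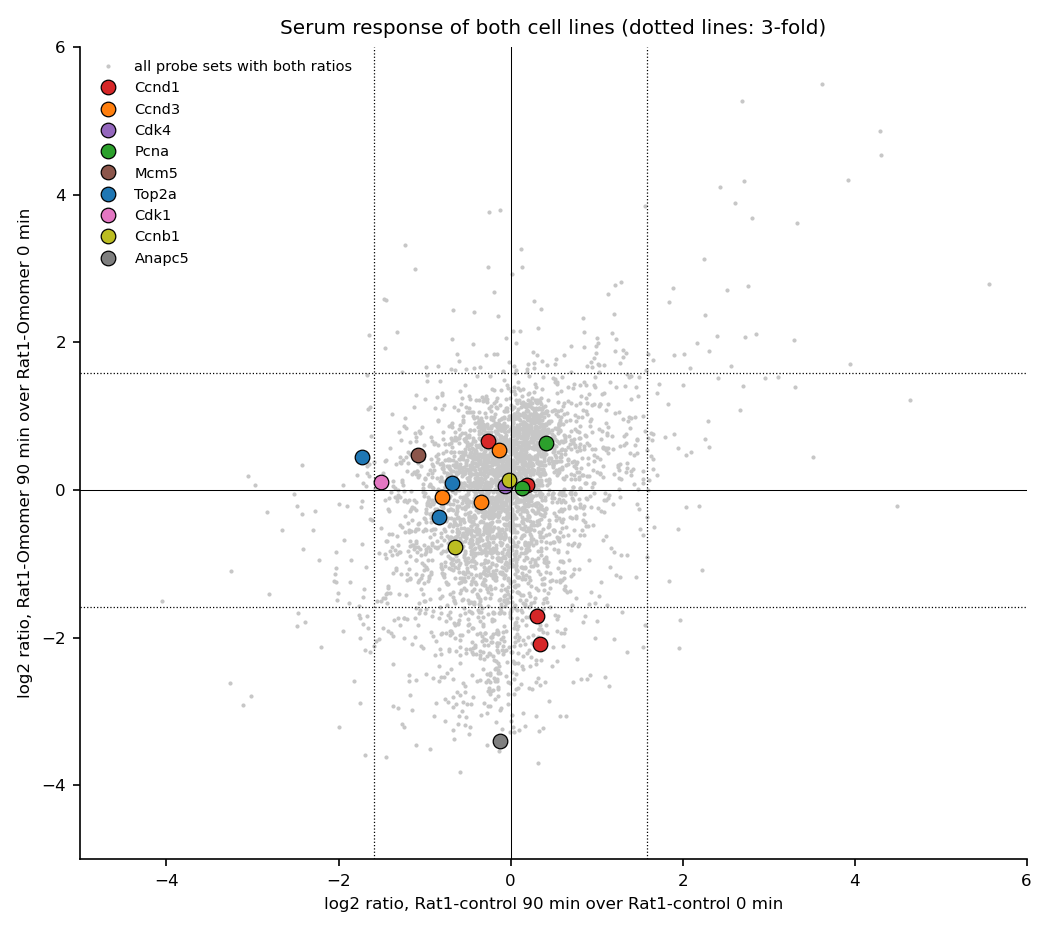
Log2 ratio of 90 min over 0 min in Rat1-control cells (horizontal axis) and in Rat1-Omomer cells (vertical axis) for all probe sets with both ratios (grey) and the 18 member probe sets with a ratio (colours, 1 array per condition); dotted lines mark 3-fold. Top2a, Cdk1 and Mcm5 extend to the left near the horizontal line, down to -1.73, while Anapc5 at -3.40 and 2 Ccnd1 probe sets at -2.08 and -1.71 lie at the bottom.

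Other genes of the cycle were taken from 5 lists. For replication genes other than the members, 14 of 15 probe sets with a ratio were below 0 in Rat1-control cells after serum. Their median log2 ratio was -0.33 and none was at least 3-fold lower. Of all probe sets 2231 of 3985 were below 0, with a median of -0.07. Some genes of the list gave several of these probe sets. Among replication probe sets with a ratio in the Omomer line after serum, 14 of 19 were below 0, with a median of -0.31. Of all probe sets 1936 of 4209 were, with a median of 0.09. For the replication probe sets the responses of the lines differed by a median of -0.01. Mcm7, a helicase subunit like Mcm5, was lower in both lines, by 2.83-fold and 2.84-fold, and its probe set belongs to the 5 series. Mcm6, another helicase subunit, was 1.43-fold to 2.26-fold lower by 3 probe sets, and Top1, the other kind of topoisomerase, was the exception at 2.28-fold higher, from 4372 to 9978. At 0 min 15 of 18 replication probe sets were higher in Rat1-Omomer than in Rat1-control cells, with a median of 0.35. Pcna, Mcm5 and Top2a were higher too, and none of all these by 3-fold. Over all probe sets 2056 of 3977 were higher, with a median of 0.01. At 90 min 14 of 17 were higher in Rat1-Omomer cells, with a median of 0.43, against 0.18 for all probe sets and 0.32 for those outside the 5 series. Higher were 2355 of 4048 of all probe sets, and 2114 of 3156 outside the series.

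Mitotic genes other than the members had 12 of 14 probe sets below 0 in Rat1-control cells after serum, where 2231 of 3985 of all were. Their median was -0.59, against -0.07 for all probe sets. At least 2-fold lower were 6 of the 14, where 7.23% of all probe sets were. Over Rat1-control at 0 min, 5 of 14 were at least 3-fold lower on the Rat1-Omomer 90 min array, where 9.95% of all probe sets and 28.9% of those in the 5 series were. Plk1, a kinase of mitotic entry, had 6294, 4348, 2990 and 1827. It was lower after serum in both lines, by 2.11-fold and 2.38-fold. Stmn1, a microtubule-destabilizing protein, had 13243, 13603, 8794 and 3310 in the order of Rat1-control and Rat1-Omomer at 0 min and then at 90 min. Racgap1, needed for cytokinesis, had 9632, 10333, 4080 and 1119, and its probe set belongs to the 5 series. Its value at 90 min in Rat1-Omomer cells lies under the floor of 1228 from that array alone. The others were bounds: Smc3, of the cohesin ring, and Smc4, of condensin, whose probe set also belongs to the 5 series. Plk1, Stmn1 and Racgap1 were lowest on the Rat1-Omomer 90 min array, unlike Cdk1, Top2a and Mcm5. They were named for 3-fold ratios that all use this array, so that this low value follows from the choice. Cdc20, an activator of the anaphase-promoting complex, had 2981, 1982, 872 and 1381, lowest in Rat1-control cells at 90 min, where it was under the floor. Between the lines at 90 min 5 of 12 mitotic probe sets were above 0 and 7 below, with a median of -0.27. Of all probe sets 2355 of 4048 were above 0, with a median of 0.18.

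Of other cyclins and kinases, 6 of 8 probe sets were below 0 in Rat1-control cells after serum, where 2231 of 3985 of all probe sets were. At 90 min 6 of 7 were higher in Rat1-Omomer than in Rat1-control cells. Of all probe sets 2355 of 4048 were, and 2114 of 3156 outside the 5 series. With so few probe sets, some of them pairs for a single gene, these counts were not read as a trait of the list. Ccng1, encoding the p53-regulated cyclin G1, had 14987, 12010, 6040 and 11969, with a low value only in Rat1-control cells at 90 min, as Cdk1 had. Cdk17, a kinase of the PCTAIRE family, had 1949, 2489, 3566 and 6659 by its brighter probe set, 3.42-fold higher on the last array than on the first. Of 9 probe sets of CDK inhibitors and pocket proteins, 3 passed the floor on any array and none on all 4. Rbl2, a pocket protein of quiescent cells, had 1355 and 3231 at 0 min in Rat1-control and Rat1-Omomer cells, and 969 and 3916 at 90 min, so that the Omomer line was 2.38-fold and at least 3.74-fold higher. Wee1, a kinase that restrains Cdk1, had 1057, 1465, 937 and 927, near the floor. Among E2F factors and nucleotide enzymes, Dut, encoding dUTPase, had 4230, 5517, 2138 and 4453, again lowest in Rat1-control cells at 90 min, and E2f5 had 1536, 1633, 1950 and 1019.

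**Figure D4:**
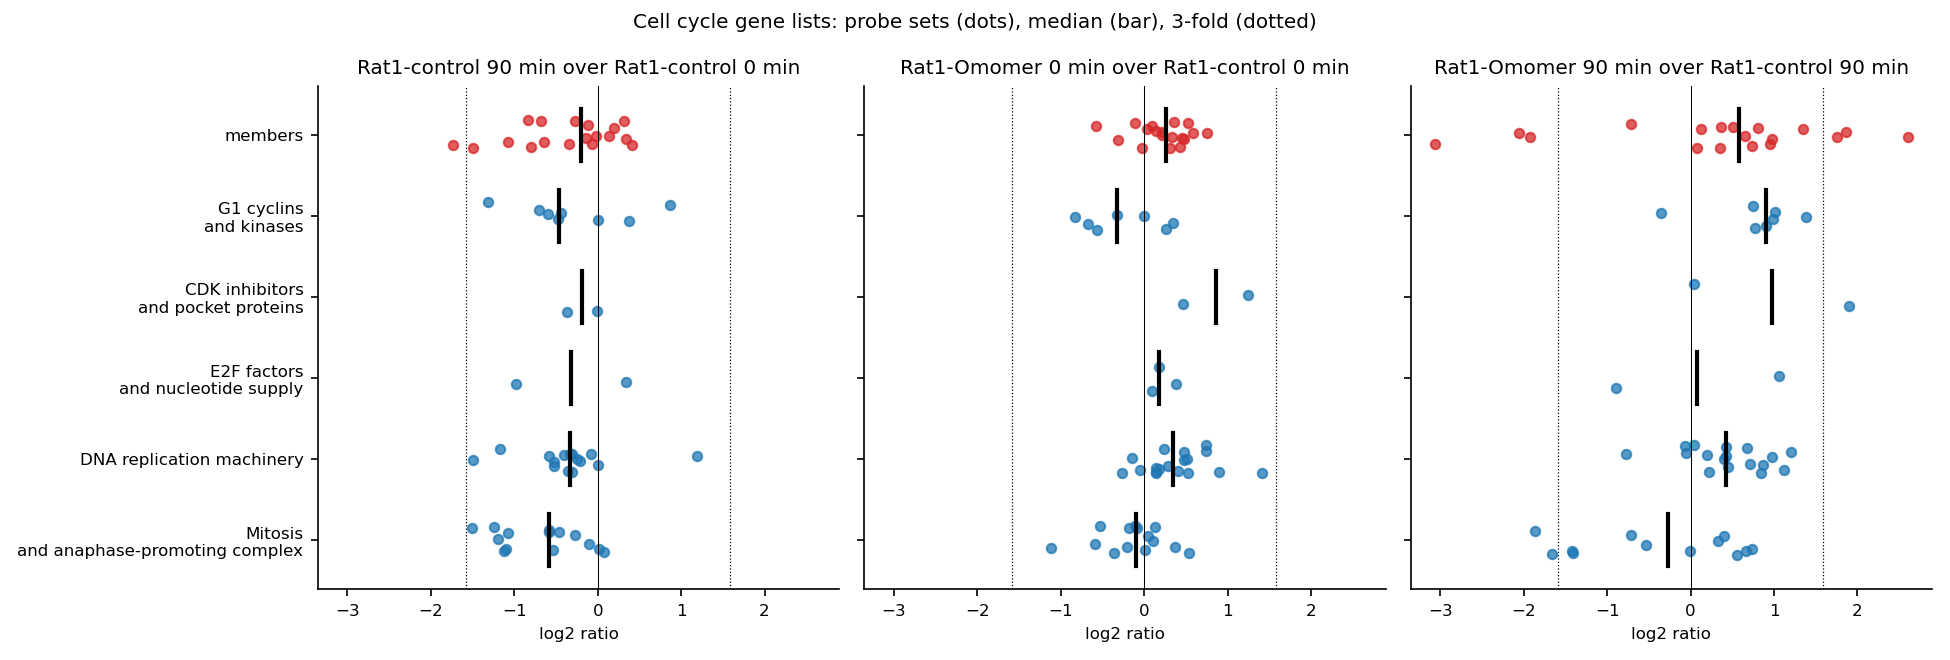
Log2 ratios (horizontal axes) of the member probe sets (red) and of 5 lists of other cell cycle genes (blue) in 3 comparisons, each dot a probe set with a ratio, black bars the medians and dotted lines 3-fold. Replication genes lie mostly left of 0 in Rat1-control cells after serum (median -0.33) and mostly right of 0 where Rat1-Omomer is set over Rat1-control (medians 0.35 and 0.43).

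The genes nearest in pattern were sought for Ccnd1 and Cdk4 by the distance over the 3 log2 ratios to Rat1-control cells at 0 min, among the 2120 singly named probe sets that passed the floor on every array. Nearest to the brightest Ccnd1 probe set were Ddx3x, an RNA helicase, at a distance of 0.21, Mdh2, a malate dehydrogenase, at 0.26, and Myl6, a myosin light chain, at 0.28. Ddx3x had 14115 and 17206 at 0 min and 15837 and 4067 at 90 min in Rat1-control and Rat1-Omomer cells. The probe sets of Ddx3x and Myl6 belong to the 5 series and that of Mdh2 does not. Nearest to Cdk4 were Prdx6, a peroxiredoxin, at 0.09, Idh3g, an isocitrate dehydrogenase subunit, at 0.12, and Scp2, a sterol carrier protein, at 0.14. Of these, Prdx6 and Idh3g have probe sets in the 5 series and Scp2 does not. With 3 ratios from 4 arrays such nearness is a description of these arrays.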

How the data were processed

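RNA of 4 samples, 1 per condition, was hybridized to Affymetrix RG-U34A arrays. The deposited values are intensities, the average differences that the authors computed with MAS 4 at default settings, linear and with values below 0 left in; their means without the outer tails were 2500.0 on every array. Of the 8799 probe sets 59 control probe sets were left out. Symbols came from the platform annotation, in which no probe set with several symbols held a member. The noise SD was the median size of the negative values scaled to a normal SD, the floor 2 times this SD, and the threshold the 3-fold of the methods. Ratios used floored values and not the MAS 4 Fold Change. With 1 array per condition there was no test and no SD, and precision is limited by the 4 arrays. Samples were grouped by title. The labels give 4-OHT during starvation and the methods from shortly before serum, so its duration is not settled. Members and lists were chosen with earlier results of these data known. Named were all members, Myc, the nearest genes to Ccnd1 and Cdk4, and the 2 brightest genes of each list. List genes at least 3-fold above the floor on both arrays in any comparison were named too. Mcm7, Smc3, Smc4 and Cdc20 were named after their values were seen. The script for ratios and calls was first tested on simulated data with known ratios. Promoters are the RefSeq ones of GRCr8, cut to the 250 bases before the start. Alternatives were other floors, median and quantile scaling, the difference form of the MAS 4 fold, other choices of probe sets and a 2-fold threshold. Python 3.11.15, numpy 2.4.6, pandas 2.3.3 and matplotlib 3.10.9 were used.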

Additional observations from a re-analysis of the deposited data

Results flagged for a closer look

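For 5 member probe sets the serum response of the 2 lines ran in opposite directions, each by more than 741, the noise SD of a difference. This SD was estimated from values below 0 and does not give the error of bright probe sets. With 1 array per condition these differences were not tested. The log2 response of Rat1-Omomer minus that of Rat1-control cells was -2.42 for Ccnd1 by D14014_g_at and -2.02 by X75207_s_at, both higher in Rat1-control and lower in Rat1-Omomer cells after serum. It was 2.18 for Top2a by Z19552cds_at and 1.55 for Mcm5, both lower in Rat1-control and higher in Rat1-Omomer cells. The values of -2.02 and 2.18 are bounds, since they rest on 797 and 865, under the floor. That of Mcm5 rests on 1069, under the floor of 1090 from that array alone. For Cdk4 it was 0.12, a small difference on a bright probe set. Other probe sets of Ccnd1 had differences of -0.13 and 0.93 and those of Top2a 0.47 and 0.76, the last a bound. Cdk1 had a difference of 1.61 with little response in Rat1-Omomer cells.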

How the results depend on the processing

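All 66 medians over the members recomputed under the alternatives moved by less than the SD within a gene. That SD describes single probe sets and is wider than every member median, so that this is a loose limit. The median difference of the serum responses went from 0.20 to 0.47 with a floor of 1 SD. With the brightest probe set of each gene, the median of Rat1-Omomer cells after serum went from 0.06 to below 0. Of the recomputed counts, 111 stayed close to the reported ones and 9 moved. With a floor of 4 SDs the lower member probe sets numbered 0 in Rat1-control cells after serum and 1 in each of the 3 comparisons of Rat1-Omomer cells at 90 min, that 1 being Anapc5, since the low Ccnd1 values then meet a higher floor. Quantile normalization also left 1, against Rat1-control at 0 min. The lower count in Rat1-control cells was 0 with both arrays above the floor, 0 with the brightest probe set of each gene and 3 at 2-fold; at 2-fold 1 was higher in Rat1-Omomer cells at 90 min over Rat1-control at 0 min. No member ratio of at least 3-fold changed direction. Only median scaling and quantile normalization could have changed it, since the other alternatives cannot turn a ratio of that size round. For Ccnd1 by X75207_s_at over Rat1-control at 0 min the log2 ratio ranged from -2.01 to -0.62. It missed 3-fold with a floor of 4 SDs, a floor for each array, median scaling and quantile normalization. Among the alternatives that change the value, it kept 3-fold only with a lower floor and with the difference form. Those that only choose other probe sets leave this ratio as it is and could not fail. Median scaling and quantile normalization moved the median of all probe sets by less than 0.1, and the direction of the members' median in no comparison. No paired analysis was possible because each condition has 1 array. Signal over background limits what can be read near 1048, as for Mcm5 and 2 Top2a probe sets in Rat1-control cells at 90 min and for Ccnb1.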
